A study of Mus musculus with 4 samples.

Results

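Bone morphogenetic protein (BMP) signalling genes were followed in cardiac cushions of mouse embryos. They comprise 6 ligands (Bmp2, Bmp4, Bmp5, Bmp6, Bmp7 and Bmp10), the receptors Bmpr1a, Acvr1 and Bmpr2, and the inhibitory SMAD gene Smad6. They were chosen by symbol and make up 10 of the 23337 gene rows of the count table. All 10 were found, and all 10 passed the filter on low counts.

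BMP ligands are secreted dimers that bring type I receptors, such as the products of Bmpr1a (ALK3) and Acvr1 (ALK2), together with type II receptors such as BMPR2. The type I receptor then phosphorylates SMAD1, SMAD5 and SMAD9, which enter the nucleus with SMAD4 and activate targets that include the ID genes and Smad6, whose product feeds back on the receptors. In the mouse heart, BMP2 from the myocardium of the atrioventricular canal drives endocardial cells to become cushion mesenchyme, and BMP4 acts in outflow tract septation.

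The cushions, the precursors of the outflow tract and atrioventricular valves, were dissected at embryonic day 14.5 from C57BL/6 embryos, and total RNA was sequenced after removal of ribosomal RNA. There were 2 libraries from embryos labelled wildtype and 2 from mutants labelled Nfatc1Cre;Brg1F/F, in which Cre driven from the Nfatc1 locus acts on floxed alleles of Brg1. Brg1, listed under its symbol Smarca4, encodes the ATP-hydrolysing motor of SWI/SNF remodellers of chromatin. Nfatc1 marks the endocardium, so the deletion concerns the endocardial lineage and not every cell of the dissected tissue. A GFP reporter of Cre guided the dissection. The labels name no transgene for the wildtype embryos and give no number of embryos per library. The p-values therefore measure library-to-library spread, part of which may be technical.

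Reads in genes numbered 14104458 to 22426537 per library, where 3 reads correspond to 0.134 to 0.213 CPM, the unit used here for reads of a gene scaled to the reads of its library. Smarca4 was not lower in the libraries labelled mutant, at 251 and 231 CPM in wildtype against 282 and 239 CPM in mutant replicates 1 and 2. Y-linked reads were plentiful in mutant replicate 2 alone, with 3384 for Ddx3y against 0 to 28 elsewhere. Sex therefore cannot be told apart from genotype in the second pair, or from replicate between the mutant libraries. Cells of the labelled tissue were represented, since the 8 endocardial markers summed to 1225 to 1320 CPM and the 8 cushion mesenchyme markers to 4923 to 5731 CPM over the 4 libraries, with 0 of them undetected. The 8 cardiomyocyte markers summed to 54360 to 66910 CPM, so heart muscle RNA was abundant in all libraries.

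Levels of different genes were set side by side as RPKM, which is CPM divided by exon length in kilobases. Bmpr1a stood well above the rest at a mean of 57.5 RPKM over the 4 libraries (range 54.5 to 61.6). Smad6 followed at 18.3 (14.1 to 22.6), Acvr1 at 14.7 (12.4 to 18.4) and Bmpr2 at 13.3 (11.9 to 14.6). The most abundant ligand transcripts were Bmp7 at 12.8 RPKM (12.1 to 14.1) and Bmp4 at 11.7 (9.66 to 17.2). Bmp5 followed at 7.19 (5.66 to 8.65), Bmp2 at 5.78 (5.05 to 6.53), Bmp10 at 4.29 (2.38 to 5.50) and Bmp6 at 2.89 (1.75 to 4.46). Only the steps from Bmpr1a to Smad6 and from Bmp4 to Bmp5 separated neighbours whose ranges did not overlap. Of the neighbours with overlapping ranges, Acvr1 lay above Bmpr2, and Bmp5 above Bmp2, within every library. The order of the others varied between libraries, and Smad6 lay above Acvr1 in both wildtype libraries and slightly below it in both mutant libraries.

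**Figure D1:**
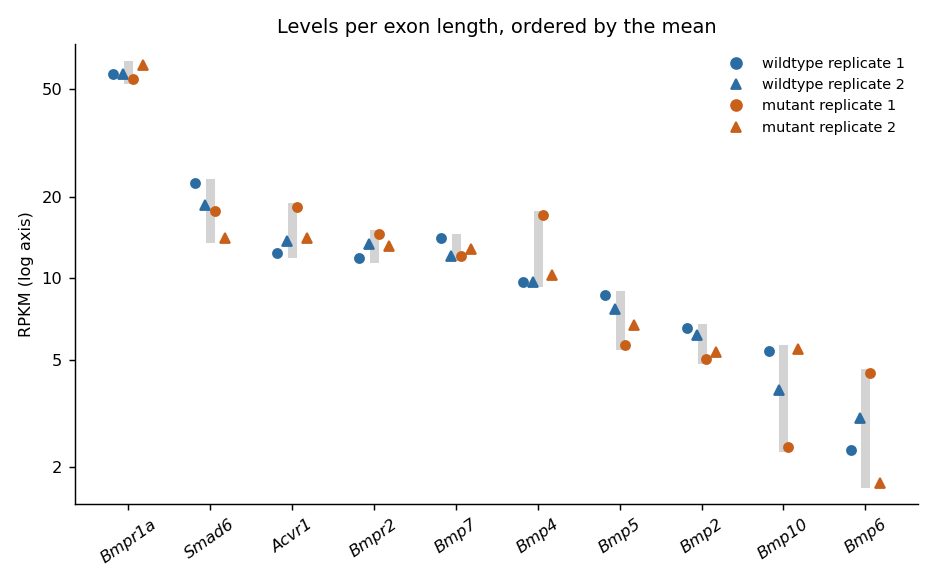
Level of each gene in RPKM (CPM per kilobase of exon, log axis), ordered by the mean over 4 libraries; circles are replicate 1, triangles replicate 2, blue wildtype and orange mutant, and grey bars span the 4 libraries. Bmpr1a, at 54.5 to 61.6 RPKM, lies above all other genes shown, and Bmp10 and Bmp6 have the widest relative ranges.

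Among the receptors, the RPKM ratio of Bmpr1a to Acvr1 was 4.60 and 4.15 in wildtype and 2.96 and 4.36 in mutant replicates 1 and 2. The ratio of Bmpr1a to Bmpr2 was 4.80 and 4.23 in wildtype and 3.74 and 4.69 in mutant replicates 1 and 2. In both ratios mutant replicate 1 was the lowest library, and mutant replicate 2 lay within the wildtype range.

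The comparison asked which transcripts of the whole dissected tissue differed between libraries labelled mutant and wildtype. It cannot assign a difference to cells of endocardial descent. Of the 10 genes, 0 passed at an adjusted p under 0.05 by edgeR's quasi-likelihood test, in which 0.0629% of all 14316 tested genes passed (9 genes). At an unadjusted p under 0.05 there was 1, Bmp5, against 5.78% of all tested genes. DESeq2 called 0 of the 10 at an adjusted p under 0.05, where 0.402% of 14910 genes passed. It had 3 at an unadjusted p under 0.05, where 2.90% of 19935 genes did. That larger set was not filtered on low counts as for edgeR, so its share is not directly comparable with those of edgeR. With the replicate number as a block, edgeR also called 0 (0.887% of genes passed). That fit had 3 at an unadjusted p under 0.05 (Bmp4, Bmp5 and Smad6), where 6.29% of genes did. The median log2 fold change of mutant over wildtype was -0.02 over the 10 genes and -0.0027 over all tested genes. The genotypes did not overlap for 5 of the 10 genes, and 33.2% of tested genes showed such a separation. In whole tissue, fewer cells of a type and less RNA per cell cannot be told apart.

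**Figure D2:**
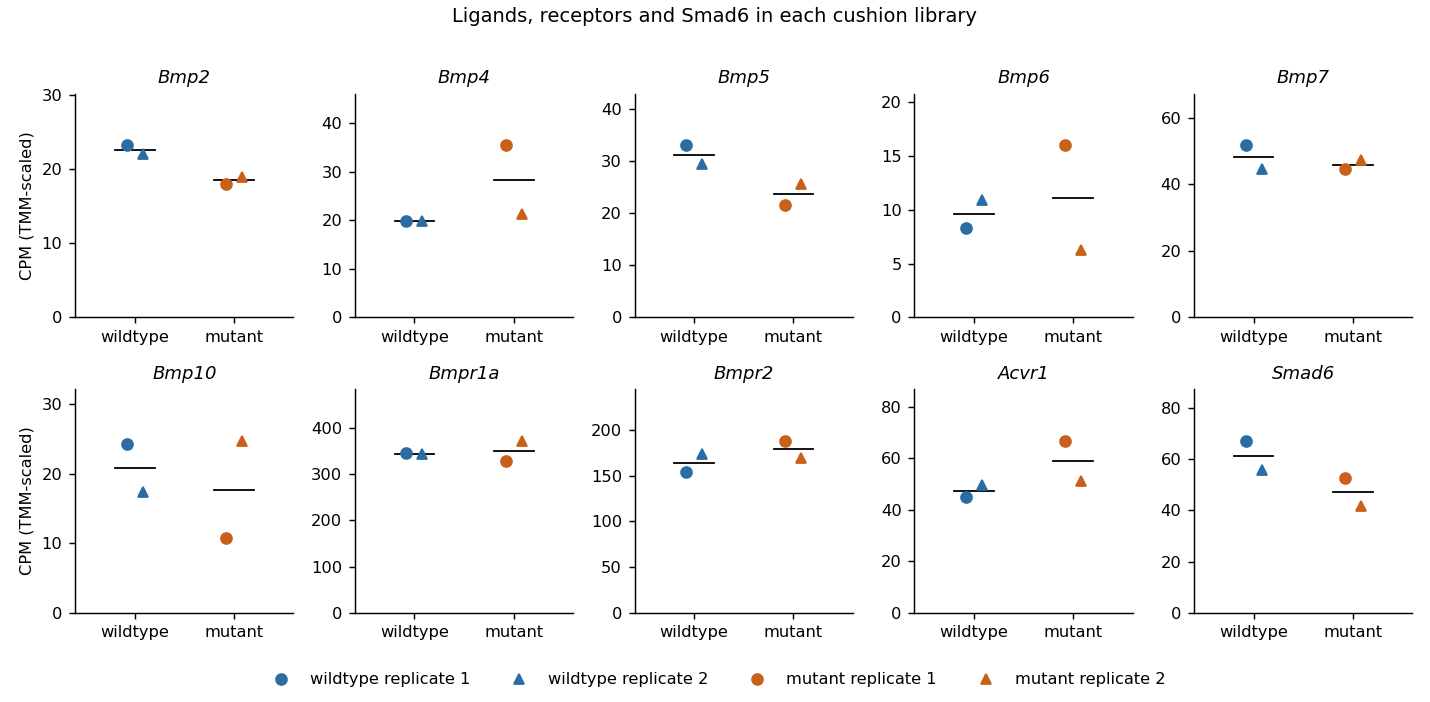
TMM-scaled CPM of each gene by genotype, on linear axes from 0; circles are replicate 1, triangles replicate 2 and lines the mean of the 2 libraries. Bmp4 and Acvr1 were higher, and Bmp2, Bmp5 and Smad6 lower, in both mutant libraries than in both wildtype libraries, while Bmp10 and Bmp6 each had one mutant library above and one below the wildtype libraries.

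The ligand of atrioventricular cushion formation, Bmp2 (chromosome 2, 133552159 to 133562885, build GRCm38), measured 23.2 and 22.0 CPM in wildtype against 17.9 and 19.0 CPM in mutant replicates 1 and 2. Both mutant libraries were below both wildtype libraries. The ratio of mutant to wildtype was 0.816, with a 95% interval of 0.633 to 1.05 (log2 fold change -0.29 ± 0.16 SE, edgeR adjusted p = 0.936). Beside it, 4 other markers of atrioventricular canal myocardium (Tbx2, Tbx3, Cacna1g and Rspo3) summed to 109 and 103 CPM in wildtype against 95.6 and 96.6 CPM in mutant replicates 1 and 2, with 0 of them undetected. Of these 4, Rspo3 alone was below both wildtype libraries in both mutant libraries, at 43.1 and 43.4 CPM in wildtype against 34.3 and 35.5 CPM in mutant, and the other 3 overlapped. Their part in the Bmp2 values was not tested.

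Bmp4 (chromosome 14, 46383520 to 46390669) had the largest ratio of the 10 genes. It measured 19.96 and 19.93 CPM in wildtype against 35.5 and 21.2 CPM in mutant replicates 1 and 2. The groups did not overlap, but mutant replicate 2 lay close to wildtype and mutant replicate 1 stood apart. The ratio was 1.43 (95% interval 0.992 to 2.06; log2 fold change 0.52 ± 0.23 SE, edgeR adjusted p = 0.879). Without mutant replicate 2 the log2 fold change was 0.84 ± 0.19, and without mutant replicate 1 it was 0.09 ± 0.21. Mutant replicate 2 is also the library rich in Y-linked reads, and the part of sex in these values was not tested. Bmp4 shares 89 exon bases with the gene model Gm15217 on the opposite strand, and the strand setting is not known. The upstream sequence of Bmp4 is given with those of Bmp10 and Smad6 further on.

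Bmp6 (chromosome 13, 38345107 to 38500302), which overlaps in function with Bmp7 in outflow cushion growth in the mouse, behaved differently in each mutant library. It measured 8.30 and 10.9 CPM in wildtype against 16.0 and 6.28 CPM in mutant replicates 1 and 2, the mutant libraries being the highest and the lowest of the 4. The ratio was 1.18 (95% interval 0.664 to 2.11). Without mutant replicate 1 the log2 fold change turned to -0.61 ± 0.30 (edgeR adjusted p = 0.765), and without mutant replicate 2 it was 0.75 ± 0.24 (adjusted p = 0.0611). Bmp6 shares 224 exon bases with Txndc5 on the opposite strand, and without a known strand setting reads there cannot be assigned with certainty.

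Bmp5 (chromosome 9, 75775364 to 75900310), a ligand of the same subfamily as Bmp6 and Bmp7, measured 33.1 and 29.5 CPM in wildtype against 21.6 and 25.7 CPM in mutant replicates 1 and 2. Both mutant libraries were below both wildtype libraries. The ratio was 0.755 (95% interval 0.579 to 0.984; log2 fold change -0.41 ± 0.17 SE), and its edgeR adjusted p over all genes was 0.819. Bmp5 shares 1878 exon bases with the gene model Gm26903 on the opposite strand.

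Bmp7 (chromosome 2, 172868012 to 172940321) measured 51.7 and 44.5 CPM in wildtype against 44.5 and 47.1 CPM in mutant replicates 1 and 2. The groups overlapped. The ratio was 0.951 with a 95% interval of 0.752 to 1.20, which leaves room for a difference of up to that size in either direction.

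Bmp10 (chromosome 6, 87428994 to 87437677), a ligand made by trabecular and atrial heart muscle, also differed widely between the mutant libraries. It measured 24.3 and 17.4 CPM in wildtype against 10.7 and 24.7 CPM in mutant replicates 1 and 2. Mutant replicate 1 was the lowest library and mutant replicate 2 the highest. The ratio was 0.837 (95% interval 0.491 to 1.43; log2 fold change -0.26 ± 0.34 SE, edgeR adjusted p = 0.979). Without mutant replicate 2 the log2 fold change was -0.96 ± 0.23. It was 0.24 ± 0.21 without mutant replicate 1 and 0.01 ± 0.39 without wildtype replicate 1.

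Heart muscle markers were set beside Bmp10. The 6 ventricular markers summed to 6690 and 5350 CPM in wildtype against 4724 and 6623 CPM in mutant replicates 1 and 2, with 0 undetected. The sum was lowest in mutant replicate 1 and close to wildtype replicate 1 in mutant replicate 2, as for Bmp10. Of the 6 genes, 2 (Myl2 and Hey2) were lowest in mutant replicate 1. Myl2 made up most of the sum, at 4661 and 3746 CPM in wildtype against 2883 and 4759 CPM in mutant replicates 1 and 2. The 8 atrial markers summed to 4149 and 3761 CPM in wildtype against 2374 and 2918 CPM in mutant replicates 1 and 2, with 0 undetected, and 4 of them were below both wildtype libraries in both mutant libraries. The 8 cardiomyocyte markers summed to 66910 and 60640 CPM in wildtype against 54360 and 57210 CPM in mutant replicates 1 and 2. Ttn made up most of this sum, at 37470 and 34630 CPM in wildtype against 29530 and 31310 CPM in mutant replicates 1 and 2. Of the 8, Ttn and Myh6 were below both wildtype libraries in both mutant libraries, and the others overlapped. The atrial and cardiomyocyte sums were below both wildtype libraries in both mutant libraries. The part of muscle content in the Bmp10 values was not tested.

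**Figure D3:**
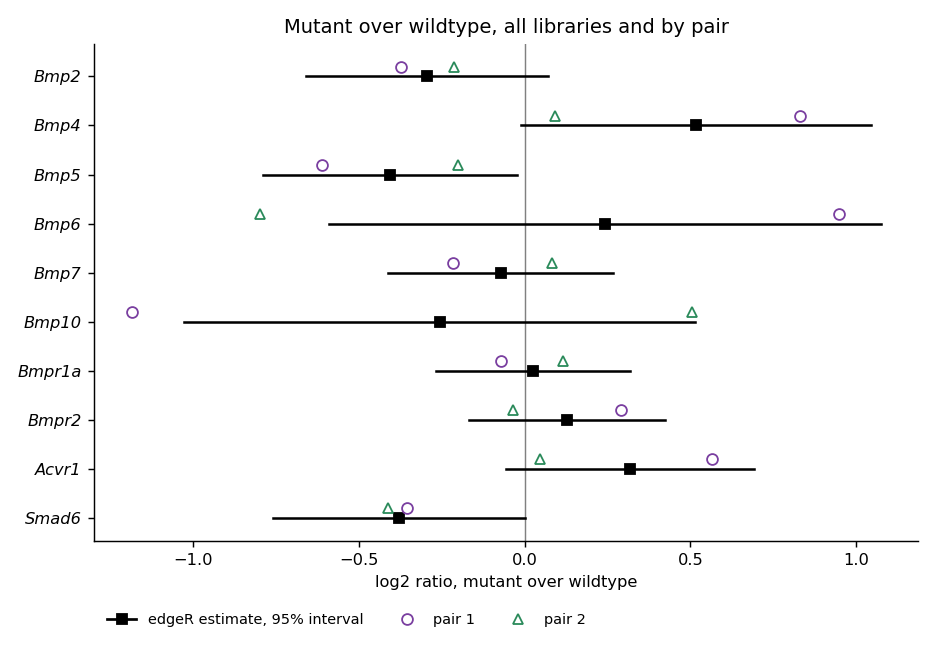
Log2 ratio of mutant over wildtype for each gene; squares and lines are the edgeR estimate over 4 libraries with its 95% interval, and open symbols the ratio within pair 1 (circles) and pair 2 (triangles). The pairs lie on opposite sides of 0 for Bmp6, Bmp7, Bmp10, Bmpr1a and Bmpr2, and on the same side for the other genes.

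Within pairs of equal replicate number, the log2 ratio of mutant over wildtype for Bmp10 was -1.18 in pair 1 and 0.50 in pair 2, and for Bmp6 0.95 and -0.80. Bmp4 was at 0.83 in pair 1 and 0.09 in pair 2. Bmp2 was at -0.37 and -0.21 and Bmp5 at -0.61 and -0.20, so these ligands were lower in the mutant library of both pairs.

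The summed ligand level was alike in both genotypes, while its makeup differed between libraries. The summed level of the 6 ligands was 46.6 and 42.6 RPKM in wildtype against 46.9 and 42.5 RPKM in mutant replicates 1 and 2. Bmp7 made up 30.2% and 28.5% of that sum in wildtype and 25.9% and 30.3% in mutant replicates 1 and 2. Bmp4 made up 20.7% and 22.7% in wildtype and 36.7% and 24.3% in mutant replicates 1 and 2, and so took first place from Bmp7 in mutant replicate 1. Bmp10 made up 11.6% and 9.10% in wildtype, 5.08% in mutant replicate 1 and 13.0% in mutant replicate 2.

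**Figure D4:**
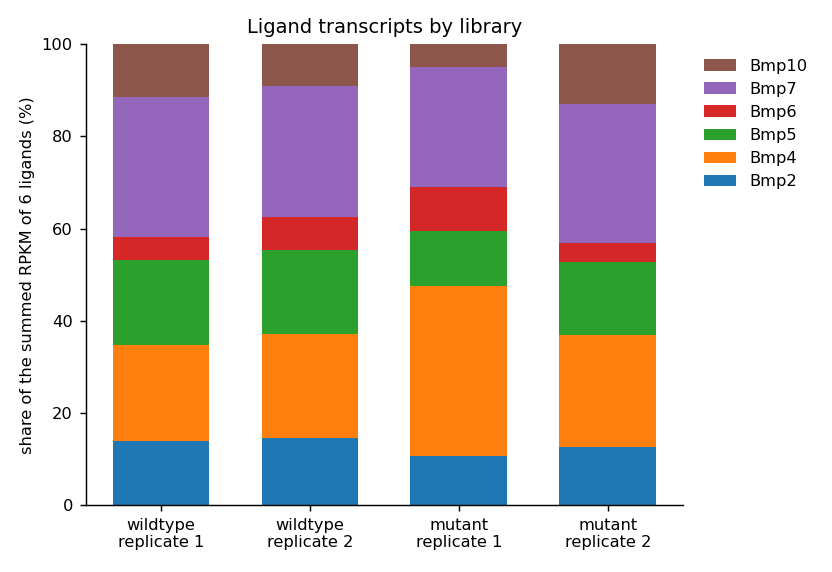
Share of each ligand in the summed RPKM of the 6 BMP ligands, in percent, for each of the 4 libraries. Bmp4 takes 36.7% in mutant replicate 1 against 20.7% to 24.3% in the other libraries, and Bmp10 takes 5.08% there.

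Of the receptors, Bmpr1a (chromosome 14, 34410734 to 34503341) measured 346 and 344 CPM in wildtype against 329 and 372 CPM in mutant replicates 1 and 2. The mutant libraries lay on either side of the wildtype ones. The ratio was 1.02 with a 95% interval of 0.831 to 1.25. Bmpr1a shares 290 exon bases with the gene model Gm17110 on the opposite strand. Bmpr2 (chromosome 1, 59763400 to 59879014) measured 154 and 173 CPM in wildtype against 188 and 169 CPM in mutant replicates 1 and 2, with overlapping groups and a ratio of 1.09 (0.891 to 1.34). For both receptors the interval leaves out a change of 1.5-fold in either direction.

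Acvr1 (chromosome 2, 58388644 to 58567157), the type I receptor through which BMP signals reach endocardial cells of the cushions alongside Bmpr1a, measured 45.1 and 49.7 CPM in wildtype against 66.7 and 51.3 CPM in mutant replicates 1 and 2. The groups did not overlap, and as for Bmp4 mutant replicate 1 stood apart and mutant replicate 2 lay close to wildtype. The ratio was 1.25 (95% interval 0.962 to 1.62; log2 fold change 0.32 ± 0.17 SE, edgeR adjusted p = 0.924). Without mutant replicate 1 the log2 fold change was 0.11 ± 0.18, and without mutant replicate 2 it was 0.50 ± 0.18 (adjusted p = 0.0967).

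In all, 4 of the 10 genes (Bmp4, Bmp6, Bmpr2 and Acvr1) were highest in mutant replicate 1, or 40.0%, against 29.6% of all tested genes. Among the markers of other cell types, 5 of 8 for cushion mesenchyme were highest in that library, where the list summed to 5731 CPM against 4923 CPM in mutant replicate 2 and 5627 and 5373 CPM in wildtype. Of the 5, Postn was level with wildtype replicate 1, at 1725 CPM in each. Vcan and Pdgfra of the same list were below both wildtype libraries in both mutant libraries. Of the erythroid markers, 6 of 8 were highest in mutant replicate 1, with a sum of 848 CPM there against 651 CPM in mutant replicate 2 and 586 and 596 CPM in wildtype. The 10 leukocyte markers with a row summed to 60.9 and 64.8 CPM in wildtype against 141 and 145 CPM in mutant replicates 1 and 2, so they did not set mutant replicate 1 apart from mutant replicate 2. The part of cell makeup in these values was not tested.

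Smad6 (chromosome 9, 63953076 to 64022059), the feedback inhibitor whose loss in mice thickens the cardiac valves, measured 67.1 and 55.6 CPM in wildtype against 52.5 and 41.8 CPM in mutant replicates 1 and 2. Both mutant libraries were below both wildtype libraries, and the log2 ratio was -0.35 in pair 1 and -0.41 in pair 2. The ratio was 0.770 with a 95% interval of 0.592 to 1.00 (log2 fold change -0.38 ± 0.17 SE, edgeR adjusted p = 0.872). In the authors' deposited table its log2 fold change, turned to mutant over wildtype, was -0.38 with an adjusted p of 1.00 after rounding. The authors' deposited table gives 0.48 for Bmp4 and -0.40 for Bmp5, with adjusted p of 0.988 and 1.00 after rounding.

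The sequence before the transcription start is shown for Bmp4, Bmp10 and Smad6. Of the members matched to a promoter, only these hold no annotated exon in the 250 bases before the start. The comparison of genotypes called none of them with all 4 libraries. The sequences are from RefSeq on GRCm38.p6, matched for 8 of the 10 genes. Capitals mark the SMAD box GTCT or its complement AGAC, and the GATA-type motif AGATAA or its complement TTATCT. Motifs were sought on both strands and do not overlap here.
Bmp4, chr14:46390670-46390919, minus strand: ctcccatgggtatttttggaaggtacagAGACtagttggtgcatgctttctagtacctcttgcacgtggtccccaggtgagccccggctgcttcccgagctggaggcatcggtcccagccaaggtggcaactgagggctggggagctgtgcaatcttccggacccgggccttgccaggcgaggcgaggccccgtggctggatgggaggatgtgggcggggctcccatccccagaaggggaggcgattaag
Bmp10, chr6:87428744-87428993, plus strand: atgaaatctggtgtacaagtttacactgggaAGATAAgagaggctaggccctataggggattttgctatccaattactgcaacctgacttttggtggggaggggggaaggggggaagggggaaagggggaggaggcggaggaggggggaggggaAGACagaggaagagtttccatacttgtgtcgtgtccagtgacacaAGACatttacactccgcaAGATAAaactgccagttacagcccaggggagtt
Smad6, chr9:64022060-64022309, minus strand: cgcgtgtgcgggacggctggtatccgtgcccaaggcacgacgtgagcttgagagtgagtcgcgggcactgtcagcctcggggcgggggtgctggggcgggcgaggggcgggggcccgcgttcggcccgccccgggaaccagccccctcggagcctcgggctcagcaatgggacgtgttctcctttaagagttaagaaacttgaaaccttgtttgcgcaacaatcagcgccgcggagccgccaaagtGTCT

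The window of Bmp10, the heart muscle ligand, held AGATAA at 2 places, starting 219 and 33 bases before the transcription start. Of 32851 RefSeq promoters, 9.99% held this motif within the same 250 bases and 0.938% held it at 2 or more places. The SMAD box was found at 1 place before Bmp4, 2 before Bmp10 and 1 before Smad6, and 82.9% of promoters held it, a share too high to set any of them apart. The GC-rich motif GGCGCC, to which BMP-activated SMADs bind, was in none of these 3 windows and in 9.59% of promoters. Of the 8 members with a RefSeq promoter, Bmpr1a and Bmpr2 held it, starting 198 and 105 bases before the start, in windows of which 141 and 250 of the 250 bases lay in annotated exons; these are not printed. The Bmp4 and Smad6 windows were rich in CpG, with 11 and 27 CpG sites, and that of Bmp10 held 3, beside a median of 6 over all promoters.

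Around these genes, 67 others of the pathway were read from lists by role, of which 58 could be tested. Of the 58, 0 passed by edgeR, 1 was lower at an unadjusted p under 0.05 (Bmp15), and 0 passed by DESeq2. With the replicate block 1 passed, again Bmp15. The median log2 fold change of the 58 was 0.03. The genotypes did not overlap for 13 of them (22.4%), beside 33.2% of all tested genes. By list, this held for 2 of 5 other ligands, 3 of 9 other receptors and co-receptors and 0 of 4 SMAD effectors. It also held for 2 of 8 intracellular and membrane inhibitors, 4 of 16 extracellular modulators and 2 of 20 targets. Nog, Smad7, Bambi and Grem1 are on the target list and on another list.

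**Figure D5:**
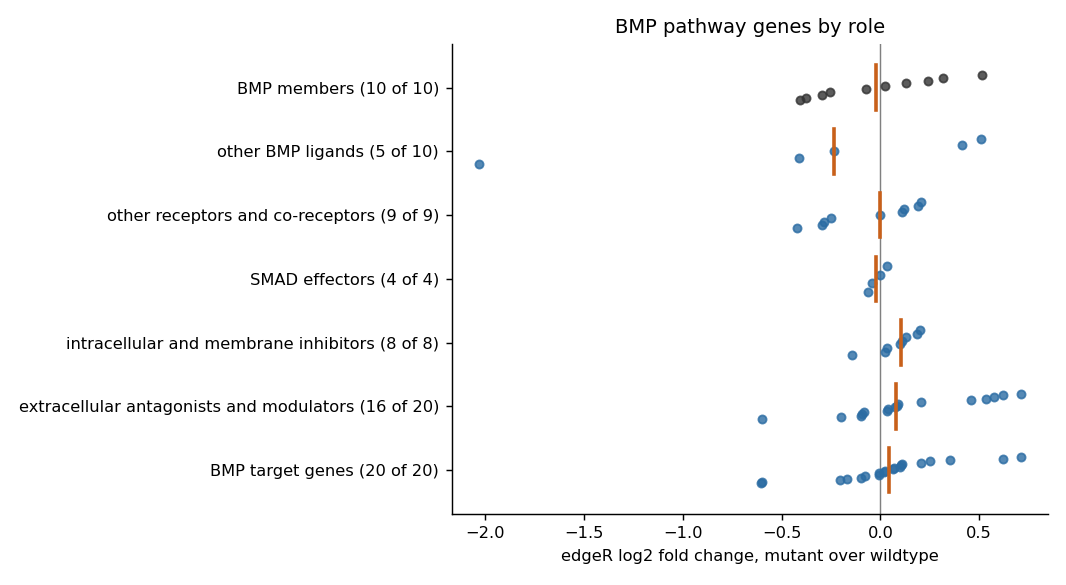
edgeR log2 fold change of mutant over wildtype for tested genes of the BMP pathway by role, 1 point per gene, with the number tested of those listed in brackets; orange bars are list medians and the grey line the median of all tested genes. SMAD effectors lie closest together around 0, and Bmp15 is the lowest point at -2.03.

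Of the other 10 ligands, 5 could be tested and 0 passed. Gdf6, a joint and skeletal ligand, had a log2 fold change of 0.41 ± 0.24 SE. Bmp3, an atypical ligand that opposes BMP signals, measured 6.33 and 4.29 CPM in wildtype against 6.29 and 1.41 CPM in mutant replicates 1 and 2, lowest in mutant replicate 2. Its log2 fold change was -0.41 ± 0.52 with all libraries, -1.91 ± 0.46 without mutant replicate 1 and 0.24 ± 0.33 without mutant replicate 2. Bmp15, an X-linked ligand known from the oocyte, had 29 and 58 reads in wildtype and 14 and 9 in mutant replicates 1 and 2. On these few reads the fitted log2 fold change was -2.03 ± 0.51; the edgeR adjusted p was 0.302, and 0.0393 when blocked by replicate number.

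Of the other 9 receptors and co-receptors, all 9 were tested and 0 passed, with 0 at an unadjusted p under 0.05 and 0 by DESeq2. Acvr2a, a type II receptor shared with activins, measured 115 and 112 CPM in wildtype against 86.1 and 106 CPM in mutant replicates 1 and 2, a log2 fold change of -0.25 ± 0.14 SE. Eng, the endothelial co-receptor endoglin, measured 68.7 and 74.6 CPM in wildtype against 78.1 and 64.9 CPM in mutant replicates 1 and 2, with overlapping groups.

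The SMADs that carry the signal lay close to wildtype levels in both mutant libraries. Smad5 measured 197 and 231 CPM in wildtype against 203 and 208 CPM in mutant replicates 1 and 2, and the shared partner Smad4 measured 120 and 125 CPM in wildtype against 120 and 131 CPM in mutant replicates 1 and 2. Of the 4 SMAD effectors, 0 separated the genotypes, beside 33.2% of all tested genes. Their fold changes on the log2 scale lay between -0.06 for Smad5 and 0.03 for Smad4.

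Of 8 intracellular and membrane inhibitors 0 passed by edgeR or DESeq2, and 0 had an unadjusted p under 0.05. Skil, a SMAD co-repressor, measured 192 and 204 CPM in wildtype against 219 and 214 CPM in mutant replicates 1 and 2, a log2 fold change of 0.13 ± 0.12 SE. Smurf2, a ubiquitin ligase for BMP receptors and SMADs, stood at 0.03 ± 0.12. Smad7, the other inhibitory SMAD, measured 45.9 and 54.1 CPM in wildtype against 54.8 and 46.8 CPM in mutant replicates 1 and 2; it was picked after its values were seen, and its groups overlapped where those of Smad6 did not.

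Of 20 extracellular antagonists and modulators, 16 were tested and 0 passed, with 0 at an unadjusted p under 0.05 and 0 by DESeq2. Fstl1, a secreted follistatin-like protein that binds BMP4, was the most abundant at 1118 and 1280 CPM in wildtype against 1380 and 1167 CPM in mutant replicates 1 and 2. Twsg1, which adjusts the binding of BMPs to chordin, stood at a log2 fold change of 0.03 ± 0.13 SE.

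Of 20 target genes, all 20 were tested and 0 passed, with 0 at an unadjusted p under 0.05 and 0 by DESeq2. Their median log2 fold change was 0.04. With the replicate block, 1 target, Msx1, had an unadjusted p under 0.05 (log2 fold change -0.71 ± 0.33 SE, edgeR adjusted p = 0.753). Tbx20, a T-box factor of cushion mesenchyme, measured 872 and 970 CPM in wildtype against 1010 and 914 CPM in mutant replicates 1 and 2. Id2, an inhibitor of helix-loop-helix factors, measured 86.2 and 62.8 CPM in wildtype against 75.8 and 96.3 CPM in mutant replicates 1 and 2. Both had overlapping groups. Of the target list, 2 genes, Msx1 and Msx2, had both mutant libraries below both wildtype libraries, beside 33.2% of all tested genes that separated in either direction.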

How the data were processed

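The authors deposited raw read counts per gene symbol and the output of an edgeR test, which holds a log2 fold change, a mean log2 CPM, a likelihood ratio score and p-values for each gene and a fold ratio for some. The submitters' processing notes name TopHat2, Bowtie2, HTSeq, SAMtools and edgeR, and mm10; tool versions, annotation and strandedness are not stated there. Of all tallied reads, 51.8% to 54.4% lay outside features, 16.1% to 17.0% aligned to several places and 0.187% to 0.210% were ambiguous, and these rows stayed out of library sizes and tests. Limits from read numbers cover counting error only.

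The genotypes were compared by the quasi-likelihood F test of edgeR 4.0.16 (R 4.3.3) after TMM scaling and filterByExpr, with Benjamini-Hochberg adjustment over all 14316 tested genes and a threshold of 0.05. Standard errors and 95% intervals came from the fold change, its F statistic and the total degrees of freedom. CPM used TMM-scaled library sizes, and RPKM divided them by the union of exons of the GENCODE M21 basic set (GRCm38). The fit was tested on simulated counts. DESeq2 1.42.0, a replicate block, RLE scaling, dropping the filter, requiring CPM 5 in 2 libraries, and leaving out each library were alternatives.

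The series text describes pairs of mutants and littermates, so replicate numbers were read as pairs. The intervals given per gene came from the fit without pairs. With the replicate block, the 95% interval of the ratio was 1.03 to 1.87 for Bmp4 and 0.60 to 0.98 for Smad6. Both leave out 1, which the unpaired intervals do not, and the edgeR adjusted p with the block was 0.686 and 0.728. Libraries of equal number deviated from the group mean with a correlation of 0.144 over tested genes and -0.013 over genes of mean CPM above 5; genes are not independent replicates. Members, lists and alternatives were chosen with earlier results of these data known. All 10 members were named, and from each list the genes that passed, or its 2 most abundant genes by mean CPM where fewer than 2 passed; Bmp15, Smad7, Msx1, Msx2 and Snai2 were named after their values were seen. Smooth muscle (1182 to 1334 CPM summed), epicardial (214 to 239), foregut and lung epithelial (16.5 to 21.1), hepatocyte (4.79 to 17.2) and erythroid (586 to 848) markers were also read, and Sftpc of the epithelial list had 0 reads.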

Additional observations from a re-analysis of the deposited data

How the results depend on the processing

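The 9 genes past the threshold became 127 with the replicate block, 236 without a filter and 60 with DESeq2, and 3 to 443 when 1 library was left out. The 10 BMP genes had 0 past the threshold in all settings but 1: without mutant replicate 2 there were 2 (Bmp4 and Bmp10), a range of 0 to 2 over the libraries left out. Of the other pathway genes 1 passed with the replicate block and 1 without a filter (Bmp15 in each), and 0 to 2 when 1 library was left out: Bmp3 and Msx1 without mutant replicate 1, Bmp15 and Snai2 without mutant replicate 2. With 1 library left in a genotype, its spread was taken from the other genotype, and the cause of these shifts was not tested. Without mutant replicate 1, the only mutant library was the one rich in Y-linked reads, so sex and genotype cannot be told apart in that fit. The block changed the call of 0 of the 10 genes. The order of levels kept all 10 places with the longest transcript in place of the union of exons, an alternative chosen after seeing the data, and 8 to 10 with 1 library left out. Of 90 estimates for the 10 genes, 83 kept direction and call. Another 5 turned direction, all 5 with 1 library left out, in Bmp6, Bmp7, Bmp10 and Bmpr1a. In those fits the log2 fold change ranged over -0.61 to 0.75 for Bmp6 and -0.18 to 0.044 for Bmp7. The range was -0.96 to 0.24 for Bmp10 and -0.060 to 0.11 for Bmpr1a. Bmp4 kept its direction, at 0.09 to 0.84. Of 108 estimates for the 12 other named genes, 14 turned direction, 1 of them with the stricter filter (Eng, to 0.0072), and with 1 library left out the values ranged over -1.91 to 0.24 for Bmp3, -0.14 to 0.13 for Eng, -0.17 to 0.056 for Smad5, -0.021 to 0.093 for Smad4, -0.033 to 0.10 for Smurf2, -0.039 to 0.21 for Fstl1, -0.071 to 0.13 for Twsg1, -0.012 to 0.14 for Tbx20 and -0.0055 to 0.46 for Id2. Each gene had 2 residual degrees of freedom, or 1 with the block. To these edgeR added 7.14 prior degrees of freedom shared across genes, or 21.9 with the block. The mutant libraries were not tested against each other. With all 4 libraries, no difference between genotypes in the 10 genes passed the threshold.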
